A study of Mus musculus with 4 samples.

Results

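The basement membrane genes of cardiac interstitial cells are described here as a list of 30 genes. They encode the collagen IV and laminin chains, the linkers and proteoglycans between them, and matrix proteins that sit at or beside basement membranes. Members were taken by gene symbol, and all 30 were found among the 32286 features of the deposited count table. Cells came from hearts of mice of the strain Ccr2creERT2-Ai14 in every group. In it the Ccr2 promoter drives a tamoxifen-inducible Cre, and Cre switches on a tdTomato reporter. The labels give 2 stroke and 2 control samples, taken 1 month after stroke or the control condition, and no age. Hearts were digested, strained to hold back cardiomyocytes, and sorted for live nucleated cells before 10x Genomics 3′ single-cell RNA sequencing. The table joins 4 libraries that no label ties to a sample, so stroke and control were not compared, no library has a group, and no p-value or SD is given.

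A basement membrane is a thin matrix sheet under endothelium, around muscle, nerve and mural cells, and under the mesothelium of the heart surface. It is built from a laminin network, each laminin being a trimer of an alpha, a beta and a gamma chain, and from a collagen IV network. Nidogens and perlecan join the networks, and further collagens, fibulins and SPARC-related proteins connect them to the matrix around. In vessels, both the lining endothelium and the mural cells contribute chains, and the alpha chain largely sets which cell surface receptors bind.

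After filtering and removal of doublets, 37465 of 39731 barcodes were analysed, 8600 to 9970 per library, with a median of 2568 to 3484 UMIs (unique molecular identifiers, which count RNA molecules) per cell. Clusters were built without any of the 30 genes and named from marker genes, and 33601 cells fell into 17 named classes of at least 50 cells. The classes run from 14831 capillary-like and 7897 fibroblast-like cells to 126 smooth muscle-like and 117 Schwann-like cells. Each level is a gene's UMIs in a class scaled to the class's total UMIs (CPM), with an exact Poisson 95% interval that covers counting error only. The 3′ assay counts molecules and is not scaled to length, so levels are compared between classes for the same gene. Library 3 held few cells of the smaller stromal classes, with 12 smooth muscle-like, 8 Schwann-like and 27 epicardial-like cells. Of the barcode sequences, 161 occurred in more than 1 library.

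The collagen IV genes come in neighbouring pairs that are read in opposite directions from a shared stretch of DNA. Windows of 250 bases before to 50 bases after the start of transcription are shown for 2 of the pairs. The partners of these pairs moved together across classes to different degrees, and a link between windows and levels was not tested. Sequences are from RefSeq on build GRCm38.p6 and are written 5′ to 3′ on the gene's own strand. Capitals mark CCAAT boxes (CCAAT, or ATTGG on the other strand) and GC boxes (GGGCGG, or CCGCCC on the other strand). The Col4a1 window is chr8:11312777-11313076 on the minus strand, and the Col4a2 window is chr8:11312555-11312854 on the plus strand.
Col4a1: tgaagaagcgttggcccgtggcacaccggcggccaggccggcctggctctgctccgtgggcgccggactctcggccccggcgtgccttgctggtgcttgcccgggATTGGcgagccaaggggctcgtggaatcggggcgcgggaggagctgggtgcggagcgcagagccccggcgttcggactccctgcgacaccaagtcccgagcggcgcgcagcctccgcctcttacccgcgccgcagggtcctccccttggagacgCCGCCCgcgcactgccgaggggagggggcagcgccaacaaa
Col4a2: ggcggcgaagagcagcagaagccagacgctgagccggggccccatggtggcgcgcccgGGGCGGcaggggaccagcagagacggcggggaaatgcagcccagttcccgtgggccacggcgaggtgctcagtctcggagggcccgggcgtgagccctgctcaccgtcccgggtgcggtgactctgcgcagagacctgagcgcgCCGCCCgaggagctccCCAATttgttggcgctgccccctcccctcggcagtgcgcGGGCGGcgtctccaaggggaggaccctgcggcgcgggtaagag
The starts used here, chr8:11312826 for Col4a1 and chr8:11312805 for Col4a2, lie 21 bases apart, so that the 5′ ends of the genes overlap. The windows share 78 bases. Both windows are GC-rich, at 74.0% for Col4a1 and 73.7% for Col4a2. The Col4a6 window is chrX:141474027-141474326 on the minus strand, and the Col4a5 window is chrX:141475169-141475468 on the plus strand.
Col4a6: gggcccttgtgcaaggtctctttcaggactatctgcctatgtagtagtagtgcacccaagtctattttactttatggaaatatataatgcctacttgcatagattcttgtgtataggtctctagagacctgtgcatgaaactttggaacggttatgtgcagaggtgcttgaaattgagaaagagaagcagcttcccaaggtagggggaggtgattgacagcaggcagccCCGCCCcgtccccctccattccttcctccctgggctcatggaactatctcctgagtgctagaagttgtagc
Col4a5: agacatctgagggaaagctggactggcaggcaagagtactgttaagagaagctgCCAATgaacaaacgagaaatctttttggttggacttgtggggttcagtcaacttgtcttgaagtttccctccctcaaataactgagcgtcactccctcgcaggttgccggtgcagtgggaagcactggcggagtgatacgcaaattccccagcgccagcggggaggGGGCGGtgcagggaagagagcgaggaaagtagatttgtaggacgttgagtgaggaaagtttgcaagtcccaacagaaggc
The starts of Col4a6 and Col4a5 used here lie 1343 bases apart and their windows share no base. GC content was 48.3% in the Col4a6 window and 52.7% in the Col4a5 window. Among all 32851 promoter windows of the same length, 37.4% hold a CCAAT box and 35.7% a GC box, so such matches are common.

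The named classes carried their own markers. All 10 fibroblast markers, all 9 pericyte markers, all 7 smooth muscle markers and all 8 Schwann markers were at least 2-fold higher in the class named for them. The smallest classes also held transcripts of fibroblast markers, most of all in library 2. The 10 fibroblast markers summed to 4294, 24848, 625 and 3850 CPM in smooth muscle-like cells of libraries 1 to 4, to 3693, 10002, 1834 and 2187 CPM in Schwann-like cells and to 5099, 8001, 3395 and 5623 CPM in epicardial-like cells, against 39673 to 43594 CPM in fibroblast-like cells. None of the 10 was at 0 in these classes. Dcn alone was 1264 CPM in smooth muscle-like, 804 CPM in Schwann-like and 4731 CPM in epicardial-like cells, against 13139 CPM in fibroblast-like cells. Pdgfra was 40.7, 19.6, 11.5 and 342 CPM in the same order. The larger endocardial-like class also held Dcn, at 1427 CPM, with 3.31 CPM of Pdgfra. The part of Dcn RNA that these classes make themselves was not tested. Of the members that are high in fibroblast-like cells, Col15a1 was 413 CPM in the 13 smooth muscle-like cells of library 2 and at most 70.2 CPM in those of the other libraries. Smoc2 was 303 CPM in the 17 Schwann-like cells of library 2 and at most 65.9 CPM in those of the other libraries. The part of fibroblast RNA in the Lama2, Lamc1, Nid1 and Col15a1 levels of smooth muscle-like and Schwann-like cells was not tested. Lama3, Smoc1 and Col18a1 were low in fibroblast-like cells, at 0.869, 5.44 and 19.1 CPM.

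Of the 30 genes, 8 were highest in an endothelial class, 8 in fibroblast-like cells, 4 in a mural class, 4 in epicardial-like cells, 3 in Schwann-like cells and 3 in an immune class. No share over all features is given for these maxima, so the counts describe the 30 genes only. The 3 with an immune maximum were Lamb3, Col8a2 and Lama1, and the last had 3 UMIs in the whole table. Set against all other cells with 20 CPM added to both sides, 14 of the 29 genes with a UMI in at least 20 cells were at least 2-fold higher in fibroblast-like cells, where 3.53% of all 18846 such features were. Arterial-like cells had 6 at 2-fold or above (2.02% of all features), capillary-like cells 5 (3.19%), epicardial-like cells 3 (3.47%) and smooth muscle-like cells 3 (2.72%). Endocardial-like (1.77%), lymphatic-like (2.16%) and Schwann-like cells (3.31%) had 2 each, and pericyte-like cells had 1 (3.31%). The median member was higher by 0.69 on the log2 scale in fibroblast-like cells, against a median of -0.02 over all features. At or under 1/2 of the level in all other cells were 14 of 29 in capillary-like (5.54% of all features), 13 in epicardial-like (4.83%), 12 in endocardial-like (3.94%) and 11 in arterial-like cells (4.36%). The counts were 11 in lymphatic-like (3.89%), 10 in pericyte-like (5.65%), 10 in smooth muscle-like (3.8%), 7 in Schwann-like (5.44%) and 3 in fibroblast-like cells (5.77%). These counts shift where few UMIs decide them. No share over all features is given for the counts with 1 library left out. Without library 1 the mural maxima were 2, and genes at 2-fold or above were 4 in endocardial-like and 1 in smooth muscle-like cells. Without library 2 the epicardial maxima were 2, and 1 gene was at 2-fold or above in endocardial-like cells. Without library 3 the counts were 1 in endocardial-like and 2 in pericyte-like cells, and without library 4 the Schwann maxima were 1. In the immune classes joined, 1 of 29 genes was at least 2-fold higher (5.14% of all features) and 23 were at or under 1/2 of the level in all other cells (7.05%).

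**Figure D1:**
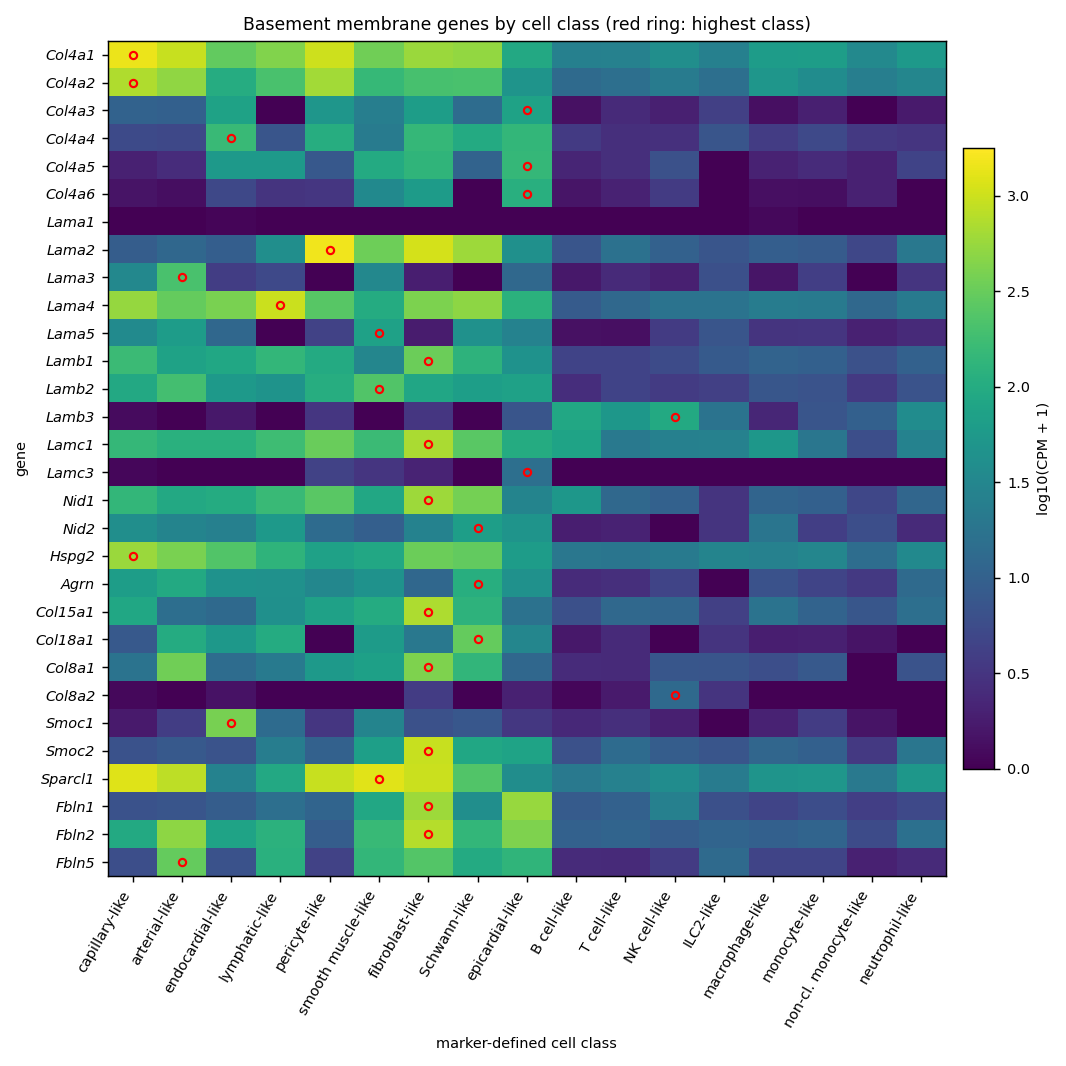
Levels of the 30 genes (rows) in 17 marker-defined classes (columns), as log10(CPM + 1) in colour. A red ring marks the class with the highest level for each gene with at least 10 UMIs over these classes. Rings fall in endothelial, mural, fibroblast-like, Schwann-like and epicardial-like columns, and in an immune column for Lamb3 and Col8a2.

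Col4a1 and Col4a2, whose chains form the collagen IV trimer found in nearly all basement membranes, were highest in capillary-like cells in each of the 4 libraries. Col4a1 stood at 1519, 1522, 1487 and 1224 CPM in capillary-like cells of libraries 1 to 4, against 1093, 734, 859 and 1047 CPM in pericyte-like cells. The capillary-like level was the higher one in every library, and the ranges of the classes over the libraries did not overlap. Pooled, Col4a1 was 1441 CPM (1428 to 1454) in capillary-like cells, 1.43 times (1.34 to 1.53) the 1009 CPM of pericyte-like cells. Arterial-like cells held 944 CPM, fibroblast-like cells 579 CPM and endocardial-like cells 297 CPM. The endothelium lining the heart chambers thus had a smaller share of Col4a1 RNA than fibroblast-like cells. Per cell the order differs, since fibroblast-like cells held a median of 6501 UMIs and capillary-like cells 2131. Col4a1 averaged 3.88 UMIs per cell in fibroblast-like cells and 3.34 in capillary-like cells. Of all Col4a1 UMIs, 50.5% were in capillary-like and 31.3% in fibroblast-like cells.

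Col4a2 was 734 CPM (725 to 743) in capillary-like cells, 622 CPM (571 to 677) in pericyte-like cells and 203 CPM (200 to 207) in fibroblast-like cells. It stood at 782, 771, 741 and 644 CPM in capillary-like cells of libraries 1 to 4, against 631, 631, 552 and 637 CPM in pericyte-like cells. The capillary-like value was the higher in each library. The ratio of Col4a2 to Col4a1 UMIs differed between classes beyond counting error. It was 0.617 (0.553 to 0.687) in pericyte-like, 0.535 (0.512 to 0.559) in arterial-like and 0.509 (0.502 to 0.517) in capillary-like cells. In fibroblast-like cells it was 0.351 (0.343 to 0.359) and in endocardial-like cells 0.344 (0.319 to 0.370). The highest fibroblast-like library was at 0.375 and the lowest capillary-like library at 0.499. Over the 17 classes the partners' levels, as log2(CPM + 1), had a Pearson r of 0.99, which describes classes that share the same libraries.

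The other collagen IV genes form networks that are known above all from kidney, lung and smooth muscle. Col4a3 and Col4a4, partners of alpha 5 in a single trimer, were both found in endocardial-like, fibroblast-like, epicardial-like and pericyte-like cells and were low in the capillary-like class. Col4a4 stood at 148, 187, 194 and 140 CPM in endocardial-like cells of libraries 1 to 4, against 141, 146, 182 and 143 CPM in fibroblast-like cells. Those values overlap, and the ratio of the pooled levels was 1.08 (1.02 to 1.14). Epicardial-like cells held 139 CPM of Col4a4 and pericyte-like cells 106 CPM (85.1 to 130). Col4a3 was 74.6 CPM (63.3 to 87.3) in epicardial-like, 72.7 CPM (67.3 to 78.3) in endocardial-like and 62.8 CPM (60.7 to 65.0) in fibroblast-like cells, and the first and second of these did not differ beyond counting error. Pericyte-like cells held 49.4 CPM (35.7 to 66.5) from 43 UMIs. Over libraries 1 to 4, Col4a3 stood at 88.3, 86.7, 59.6 and 55.9 CPM in epicardial-like cells and at 68.8, 90.1, 98.6 and 58.5 CPM in endocardial-like cells. The highest class was epicardial-like in library 1, endocardial-like in libraries 2 and 3 and, at 77.6 CPM, pericyte-like in library 4. Within the pair, Col4a4 UMIs outnumbered Col4a3 UMIs by 2.33 times (2.24 to 2.43) in fibroblast-like and 2.17 times (1.98 to 2.38) in endocardial-like cells. In capillary-like cells the ratio was 0.459 (0.376 to 0.558), from 152 Col4a4 and 331 Col4a3 UMIs, and it was under 1 in each library.

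Among whole named classes, Col4a5 and Col4a6, which share a trimer, were highest in epicardial-like cells. A cluster within the fibroblast-like class, described below, held more of both. Col4a6 stood at 94.1, 134, 101 and 103 CPM in epicardial-like cells of libraries 1 to 4, against 62.3, 64.7, 39.6 and 61.0 CPM in fibroblast-like cells. Every epicardial-like value lay above every value of the whole fibroblast-like class, and the pooled ratio was 1.83 (1.60 to 2.10). Col4a5 was 144 CPM (128 to 161) in epicardial-like and 132 CPM (129 to 135) in fibroblast-like cells, a ratio of 1.09 whose interval (0.965 to 1.22) holds 1. It stood at 142, 172, 125 and 122 CPM in epicardial-like cells of libraries 1 to 4, against 138, 138, 125 and 118 CPM in fibroblast-like cells. Those values overlap, and in library 4 smooth muscle-like cells were higher than both, at 129 CPM. Endocardial-like cells carried Col4a5 at 54.3 CPM with little Col4a6, at 4.06 CPM. The ratio of Col4a6 to Col4a5 was accordingly 0.773 (0.648 to 0.92) in epicardial-like, 0.458 (0.439 to 0.478) in fibroblast-like and 0.0748 (0.0523 to 0.104) in endocardial-like cells. Over the 17 classes the Pearson r of the pair was 0.86, and that of Col4a3 and Col4a4 was 0.90. Levels of the other pairs rest on far fewer UMIs than those of Col4a1 and Col4a2. Col4a1 had 98122 UMIs in all and Col4a6 had 3770.

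**Figure D2:**
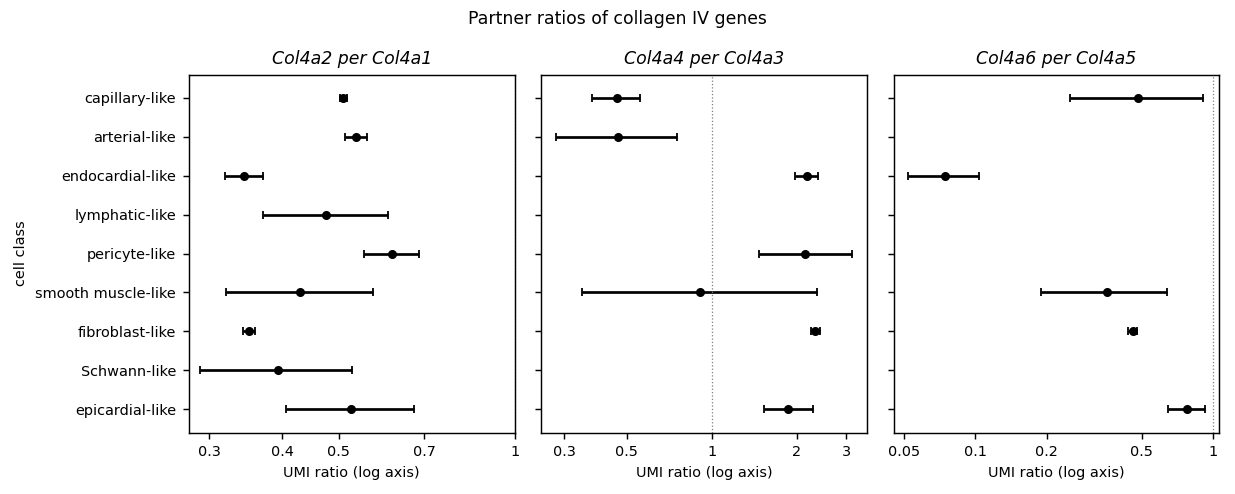
Ratio of UMIs of each collagen IV gene to its neighbour (log axes) in the 9 stromal classes with at least 10 UMIs of both genes. Points are pooled values and bars exact 95% intervals for counting error. Col4a4 per Col4a3 lies under 1 in capillary-like and arterial-like cells and near 2 in endocardial-like and fibroblast-like cells, and Col4a6 per Col4a5 is lowest in endocardial-like cells.

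The laminin alpha chain used differed between the classes. Lama4, the alpha chain of endothelial laminin, gave 95.8% of laminin alpha UMIs in lymphatic-like, 94.7% in endocardial-like and 87.9% in capillary-like cells. Lama2, the chain of muscle and nerve laminin whose loss causes a muscular dystrophy, gave 85.6% in pericyte-like, 73.2% in fibroblast-like, 63.0% in smooth muscle-like and 52.0% in Schwann-like cells. Arterial-like cells stood apart from both, with 51.9% Lama4 and 35.4% Lama3. Epicardial-like cells were mixed too. Lama4 led there at 0.804 UMIs per cell, against 0.288 of Lama2, 0.18 of Lama5 and 0.0784 of Lama3.

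Lama2 stood at 1335, 1940, 1587 and 1729 CPM in pericyte-like cells of libraries 1 to 4, against 1122, 1045, 1313 and 1042 CPM in fibroblast-like cells. Each pericyte-like value was above all fibroblast-like values. The pooled levels were 1523 CPM (1443 to 1608) and 1100 CPM (1091 to 1109), a ratio of 1.39 (1.31 to 1.46). In the other direction lie the endothelial classes, at 39.5 CPM (23.8 to 61.6) in lymphatic-like, 11.1 CPM in arterial-like, 8.33 CPM in endocardial-like and 8.09 CPM in capillary-like cells. The lymphatic-like level came from 19 UMIs and was 23.2, 0, 164 and 0 CPM in libraries 1 to 4, and the fibroblast markers summed to 556, 261, 3772 and 252 CPM in the same cells. B cell-like cells, which are not known to make this chain, were at 6.13 CPM. In capillary-like cells Lama2 was 17.6, 6.81, 3.48 and 8.52 CPM in libraries 1 to 4, which held 3217, 1995, 645 and 2040 fibroblast-like cells. The part of free RNA in these low endothelial values was not tested.

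Lama3, an alpha chain best known from the laminin of skin and other epithelia, marked arterial-like cells. It stood at 236, 184, 209 and 186 CPM in arterial-like cells of libraries 1 to 4, against 44.2, 31.2, 26.6 and 28.7 CPM in capillary-like cells. The libraries agree on the order and the classes do not overlap. A UMI of Lama3 was found in 34.1% of arterial-like, 6.08% of capillary-like and 0.328% of B cell-like cells. Smooth muscle-like cells had 32.1 CPM, but all 15 UMIs there were in library 1. Pericyte-like cells had no Lama3 UMI, which allows up to 3.44 CPM (3 UMIs). The 2623 arterial-like cells held 48.5% of all Lama3 UMIs and the 14831 capillary-like cells 40.5%. Lamb3, the beta chain that pairs with Lama3 in the epithelial laminin, had no UMI in arterial-like cells, which allows up to 0.477 CPM.

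Lama4 stood at 949, 1213, 853 and 962 CPM in lymphatic-like cells, against 505, 622, 509 and 527 CPM in capillary-like cells. The lymphatic-like level was higher in each library, by 1.82 times (1.66 to 1.99) in the pooled counts. Fibroblast-like cells held 401 CPM (396 to 407), endocardial-like cells 399 CPM (386 to 412), arterial-like cells 302 CPM and pericyte-like cells 253 CPM. Of all Lama4 UMIs, 41.8% were in fibroblast-like and 36.6% in capillary-like cells. Schwann-like cells, at 497 CPM (421 to 583), had an interval that overlaps that of capillary-like cells, at 542 CPM (534 to 550). Lama5, a chain of mature vessel walls, was low throughout. It was 70.7 CPM (48.7 to 99.3) in smooth muscle-like cells, from 33 UMIs of which 26 were in library 1, and 62.3 CPM (56.3 to 68.8) in arterial-like cells. Its arterial-like values were 62.3, 58.3, 61.9 and 64.9 CPM, whereas its smooth muscle-like values were 87.4, 0, 25 and 70.2 CPM, from at most 6 UMIs in each library but the first. Lama1, a chain of early embryonic membranes, had 3 UMIs in all, 1 each in macrophage-like, endocardial-like and fibroblast-like cells, and was highest in macrophage-like cells at 0.175 CPM (0.00444 to 0.977).

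**Figure D3:**
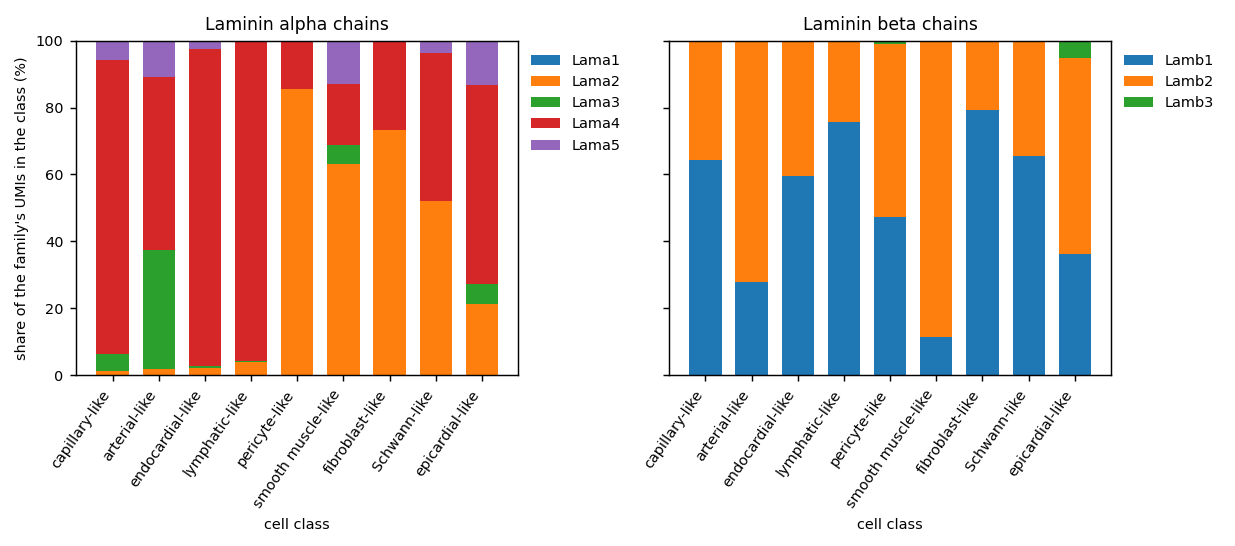
Share of laminin alpha (left) and laminin beta (right) UMIs taken by each gene in 9 stromal classes, in percent. Lama4 fills most of the bar in endothelial classes and Lama2 in pericyte-like and fibroblast-like cells, Lama3 takes 35.4% in arterial-like cells, and Lamb2 takes 72.1% in arterial-like and 88.5% in smooth muscle-like cells.

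Among beta chains, Lamb1 gave most of the UMIs in 5 of the 9 stromal classes, with 79.2% of laminin beta UMIs in fibroblast-like, 75.6% in lymphatic-like, 65.5% in Schwann-like, 64.3% in capillary-like and 59.5% in endocardial-like cells. Lamb2, the beta chain of vessel wall and synapse laminins, led with 88.5% (81.5 to 93.6, exact binomial) in smooth muscle-like cells (55.6% in library 2 and 89.7% or more in the others) and 72.1% (69.9 to 74.3) in arterial-like cells. It also led with 58.6% (52.3 to 64.7) in epicardial-like cells, and its 51.7% (44.1 to 59.3) in pericyte-like cells has an interval that overlaps that of Lamb1, at 47.2% (39.6 to 54.8). In libraries 1 to 4 its share was 73.2%, 66.2%, 68.3% and 77.4% in arterial-like cells, against 34.1%, 32.3%, 34.1% and 43.1% in capillary-like cells. Arterial-like and capillary-like cells therefore differed in the share of this beta chain, without overlap between libraries, as well as in alpha chains. Lymphatic-like and endocardial-like cells led with Lamb1, as capillary-like cells did. In level, Lamb2 was 231 CPM (190 to 279) in smooth muscle-like and 189 CPM (178 to 200) in arterial-like cells, and their ratio of 1.23 (0.997 to 1.49) did not pass counting error. Lamb2 stood at 235, 115, 250 and 269 CPM in smooth muscle-like cells of libraries 1 to 4, against 193, 157, 179 and 211 CPM in arterial-like cells. In library 2, with 5 UMIs in smooth muscle-like cells, that order was turned round. Lamb1 stood at 364, 296, 359 and 291 CPM in fibroblast-like cells, against 165, 177, 165 and 139 CPM in capillary-like cells.

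Lamc1, the gamma chain of nearly all laminins, was 691 CPM (684 to 699) in fibroblast-like cells, 2.15 times (1.91 to 2.43) the 321 CPM of pericyte-like cells. It stood at 749, 622, 788 and 634 CPM in fibroblast-like cells of libraries 1 to 4, against 296, 320, 351 and 371 CPM in pericyte-like cells, without overlap. Capillary-like cells had 145 CPM. Lamc3, a rare gamma chain, was seen in epicardial-like cells at 14.4 CPM (9.74 to 20.6) from 30 UMIs, with 17.3, 23.1, 11.9 and 4.30 CPM over libraries 1 to 4. Pericyte-like cells were next for Lamc3, at 3.44 CPM, and were its highest class in library 4. Fibroblast-like cells had 1.08 CPM of it.

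Nidogens bind the laminin gamma chain and collagen IV. Nid1 stood at 591, 555, 839 and 523 CPM in fibroblast-like cells of libraries 1 to 4, against 142, 142, 145 and 130 CPM in capillary-like cells. Library 3 was the highest for fibroblast-like cells, and no capillary-like value came near them. Schwann-like cells were next, with 369 CPM (305 to 444) from 113 UMIs, and in library 2 their 586 CPM was above the fibroblast-like value. Nid2 was far lower, at 65.4 CPM (39.9 to 101) in Schwann-like, 56.1 CPM in lymphatic-like and 47.1 CPM in epicardial-like cells, and the ratio of the first to the second was 1.17 (0.620 to 2.16). Its Schwann-like values were 54.0, 80.8, 0 and 95.7 CPM in libraries 1 to 4, from at most 9 UMIs each, and its highest class was another one in 3 of the 4 libraries. Macrophage-like cells held 17.4 CPM (14.1 to 21.1), with 13.7 to 23.5 CPM over the libraries. Its share of nidogen UMIs was 62.8% (54.7 to 70.4) in epicardial-like cells, 21.9% in capillary-like cells and 4.31% in fibroblast-like cells. The epicardial-like share was uneven, at 43.8%, 70.2%, 38.9% and 64.3% over the libraries, and 66 of the 98 Nid2 UMIs came from library 2.

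Hspg2, which encodes perlecan, the main heparan sulfate proteoglycan of vessel walls, stood at 563, 622, 588 and 548 CPM in capillary-like cells, against 347, 507, 424 and 353 CPM in arterial-like cells. The capillary-like level was higher in every library, with a pooled ratio of 1.47 (1.41 to 1.54). Fibroblast-like cells held 328 CPM and pericyte-like cells 72.3 CPM. Agrn, which encodes agrin, the organiser of acetylcholine receptors at the nerve-muscle synapse, was 108 CPM (74.3 to 152) in Schwann-like and 91.9 CPM (84.5 to 99.7) in arterial-like cells. These did not differ beyond counting error (ratio 1.17, 0.801 to 1.67). Agrn stood at 65.9, 162, 122 and 164 CPM in Schwann-like cells of libraries 1 to 4, against 89.0, 99.7, 99.6 and 83.0 CPM in arterial-like cells, and library 1 had the arterial-like value on top. Its share of the UMIs of the 2 proteoglycans was 41.0% (34.4 to 47.9) in epicardial-like, 33.9% (22.3 to 47.0) in smooth muscle-like, 30.0% (20.8 to 40.6) in pericyte-like and 26.8% (19.2 to 35.6) in Schwann-like cells. It was lower in arterial-like cells at 18.9%, in capillary-like cells at 9.75% and in fibroblast-like cells at 3.31%.

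The multiplexins are collagens with heparan sulfate or chondroitin sulfate chains, and the end of collagen XVIII is released as endostatin. Col18a1 stood at 294, 283, 306 and 314 CPM in Schwann-like cells, against 118, 97.8, 87.2 and 96.2 CPM in arterial-like cells. All Schwann-like values were above all others, although library 3 gave only 5 UMIs from 8 cells, and the pooled ratio was 2.97 (2.36 to 3.70). Col15a1 stood at 762, 652, 726 and 658 CPM in fibroblast-like cells, against 87.1, 111, 72.9 and 76.0 CPM in capillary-like cells. The fibroblast-like level was 5.67 times (4.13 to 8.01) the 124 CPM of Schwann-like cells, the next class. The choice between the multiplexins split the endothelium. Col18a1 gave 87.8% (85.1 to 90.1) of their UMIs in arterial-like, 81.5% (78.2 to 84.5) in endocardial-like and 7.65% (6.75 to 8.62) in capillary-like cells. The lowest arterial-like library was at 84.6% and the highest capillary-like library at 9.48%.

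Col8a1, a short-chain collagen of vessel intima, stood at 433, 422, 466 and 366 CPM in fibroblast-like cells, against 400, 233, 339 and 361 CPM in arterial-like cells. The fibroblast-like value was above the arterial-like one in each library, with a pooled ratio of 1.21 (1.16 to 1.26), and capillary-like cells had 16.4 CPM. In library 3 the highest class for Col8a1 was Schwann-like, from 8 cells. Col8a2 was scarce, with 189 UMIs in all. It was highest in NK cell-like cells at 11.8 CPM (6.28 to 20.2) from 13 UMIs, against 2.74 CPM in fibroblast-like cells, and the NK cell-like values were 10.3, 12.7, 13.2 and 11.5 CPM in libraries 1 to 4, from 2 to 4 UMIs each.

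The SMOC genes, which encode calcium-binding relatives of SPARC, were split between endocardium and fibroblasts. Smoc1 stood at 357, 370, 522 and 352 CPM in endocardial-like cells of libraries 1 to 4, against 0 to 75 CPM in smooth muscle-like cells, the next class, from 13 UMIs in all. It was 382 CPM (369 to 395) in endocardial-like cells and 0.727 CPM in capillary-like cells. With each cell thinned to 1000 UMIs, a Smoc1 UMI was found in 30.9% of endocardial-like and 0.135% of B cell-like cells (65.1% and 0.459% unthinned). Smoc2 stood at 847, 1059, 1030 and 963 CPM in fibroblast-like cells, against 65.9, 303, 0 and 0 CPM in Schwann-like cells, the next class. Fibroblast-like cells held 97.3% of all Smoc2 UMIs. Smoc1 gave 98.5% of the pair's UMIs in endocardial-like cells and Smoc2 gave 99.4% in fibroblast-like cells.

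Sparcl1, which encodes hevin, another SPARC relative, was high in several classes and low in the endocardial-like one. It stood at 1310, 919, 1475 and 1229 CPM in smooth muscle-like cells, against 1257, 1223, 1311 and 1111 CPM in capillary-like cells. The values overlap, and the ratio of 1.03 (0.951 to 1.12) did not pass counting error. Fibroblast-like cells held 964 CPM, pericyte-like cells 941 CPM and arterial-like cells 849 CPM. Endocardial-like cells were at 26.7 CPM (23.5 to 30.2) and lymphatic-like cells at 91.4 CPM (66.4 to 123).

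**Figure D4:**
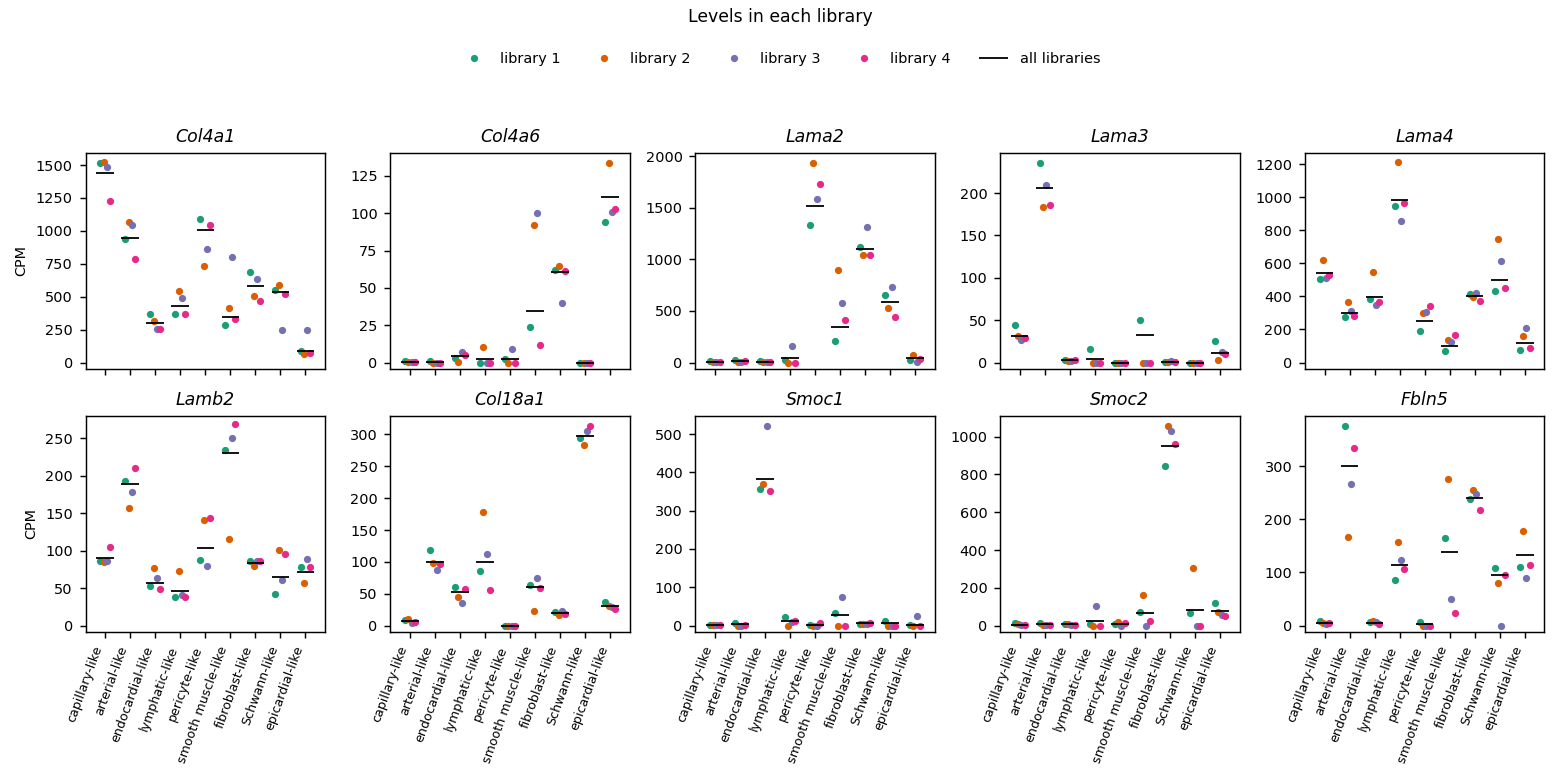
Levels in CPM of 10 of the genes in each of the 4 libraries (points) and pooled (bars), in 9 stromal classes. Lama3 is high in arterial-like, Smoc1 in endocardial-like, Col18a1 in Schwann-like and Col4a6 in epicardial-like cells in all 4 libraries, and points of smooth muscle-like and Schwann-like cells spread most.

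Fibulins bind both basement membranes and elastic fibres. Fbln1 stood at 604, 635, 525 and 580 CPM in fibroblast-like cells, against 538, 643, 399 and 550 CPM in epicardial-like cells, with overlapping values and a ratio of 1.06 (1.00 to 1.13). Fbln2 stood at 786, 757, 773 and 718 CPM in fibroblast-like cells, against 554, 353, 396 and 610 CPM in arterial-like cells. The fibroblast-like values were the higher ones throughout, by 1.54 times (1.48 to 1.60). Fbln5, which is needed for elastic fibre assembly, stood at 376, 166, 267 and 333 CPM in arterial-like cells, against 238, 255, 248 and 218 CPM in fibroblast-like cells. Library 2 reversed that order, and the pooled ratio was 1.25 (1.19 to 1.32). The highest class in library 2 was smooth muscle-like, from 13 cells. Fbln5 was nearly absent from capillary-like cells, at 5.03 CPM, while lymphatic-like cells had 114 CPM. Arterial-like cells divided their fibulin UMIs into 61.8% Fbln2, 37.5% Fbln5 and 0.773% Fbln1.

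Within the fibroblast-like class, 3 clusters used different members. They are named here by leading genes as the Cxcl14 and Smoc2 cluster (4649 cells), the Mfap4 and Ccn2 cluster (1942 cells) and the Cd248 and Gfpt2 cluster (1306 cells). Smoc2 is itself a member, and was not used to form the clusters. Col4a6 stood at 163, 171, 116 and 166 CPM in the Mfap4 and Ccn2 cluster of libraries 1 to 4, against 21.5, 17.0, 36.8 and 26.9 CPM in the Cd248 and Gfpt2 cluster and 28.8, 31.2, 25.3 and 37.6 CPM in the Cxcl14 and Smoc2 cluster. The Mfap4 and Ccn2 values were above all others, by 7.21 times over the lowest cluster in the pooled counts. The same cluster had the most Fbln1, at 1164 CPM against 321 CPM in the Cd248 and Gfpt2 cluster, and the most Col4a5, at 218 CPM against 94.1 CPM. Its pooled levels were also above those of epicardial-like cells, at 163 against 111 CPM for Col4a6 and 218 against 144 CPM for Col4a5. For Col4a6 that order held in each library.

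The Mfap4 and Ccn2 cluster had the least Lamb1, Col4a1, Nid1 and Smoc2. Lamb1 was 122 CPM in the Mfap4 and Ccn2 cluster against 428 CPM in the Cxcl14 and Smoc2 cluster, and Col4a1 was 321 CPM against 749 CPM. Smoc2 was 312 CPM in the Mfap4 and Ccn2 cluster against 1323 CPM in the Cxcl14 and Smoc2 cluster. Lama2 was highest in the Cxcl14 and Smoc2 cluster too, at 1299 CPM. The Cd248 and Gfpt2 cluster led for Fbln2, at 1050 CPM against 671 CPM in the Cxcl14 and Smoc2 cluster, and for Nid1 and Lamc1, at 755 and 822 CPM. A class level such as 60.6 CPM of Col4a6 in fibroblast-like cells is therefore a mean over clusters that differ by several fold.

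**Figure D5:**
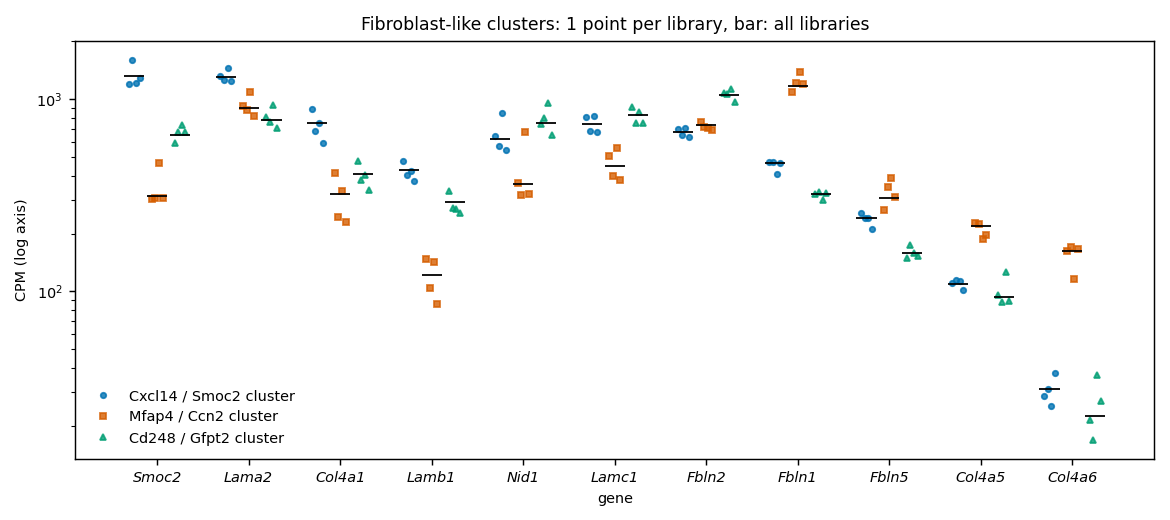
Levels in CPM (log axis) of 11 of the genes in the 3 fibroblast-like clusters. Points are libraries and bars pooled values. Col4a6, Col4a5 and Fbln1 are highest, and Smoc2, Lamb1 and Col4a1 lowest, in the Mfap4 and Ccn2 cluster.

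B cell-like cells held few of these transcripts. The B cell-like level of 27 genes, leaving out Lama1, Lamb3 and Col8a2, ran from 0 to 3.20% of the highest class for 25 genes. The exceptions were Lamc1 at 11.1% and Nid1 at 8.73%. Lamc1 stood at 105, 69.4, 94.5 and 90.1 CPM in B cell-like cells of libraries 1 to 4, a narrow range over libraries with 101 to 924 such cells. Nid1 stood at 33.2, 51.6, 23.3 and 74.1 CPM. It differed between B cell-like clusters, at 89.7 CPM (79.8 to 100) in the cluster led by Igkc and Jchain and 22.8 CPM (18.6 to 27.6) in the cluster led by Ighd and Ly6d. The first was the higher in each library, at 72.8 to 107 CPM, but it held only 14 cells in library 1 and 8 in library 3. The second was at 16.8 to 19.0 CPM in libraries 1 to 3 and higher in library 4. For Lamc1 the intervals of the same clusters overlap, at 74.1 CPM (65.2 to 83.9) and 78.5 CPM (70.5 to 87.2).

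Lamb3, the beta chain of epithelial laminin, was higher in lymphocyte classes than in any stromal class. It stood at 113, 140, 52.8 and 63.2 CPM in NK cell-like cells of libraries 1 to 4 and at 133, 80.6, 133 and 80 CPM in B cell-like cells, with 51.0 CPM in T cell-like and 37.1 CPM in neutrophil-like cells. The first and second of these did not differ beyond counting error (ratio 1.07, 0.863 to 1.32). A Lamb3 UMI was found in 31.5% of B cell-like and 31.4% of NK cell-like cells, against 0.0539% of capillary-like cells. At 1000 UMIs per cell the shares were 9.97%, 6.30% and 0.0147%. Among B cell-like clusters Lamb3 ran the other way to Nid1, at 46.9 CPM (39.9 to 54.9) in the Igkc and Jchain cluster and 119 CPM (109 to 129) in the Ighd and Ly6d cluster. Lama3, its usual partner, was at 0.639 CPM in B cell-like cells.

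Other genes of the pathway were read as 4 lists with 40 genes in all, chosen with earlier results known. Of 9 genes for collagen IV assembly and cross-linking, 2 were at least 2-fold higher in fibroblast-like (3.53% of all features) and 2 in capillary-like cells (3.19%), and none in the other stromal classes. In the immune classes joined 5 of the 9 were at or under 1/2 (7.05% of all features). The list's median was higher by 0.59 on the log2 scale in fibroblast-like cells, against -0.02 over all features. Serpinh1, a collagen chaperone, was 532 CPM in fibroblast-like cells and 316 CPM in epicardial-like cells. P4hb, a subunit of prolyl hydroxylase, was 243 CPM in fibroblast-like and 181 CPM in epicardial-like cells. Pxdn, the peroxidase that cross-links collagen IV, was 169 CPM (149 to 197 over the libraries) in capillary-like and 105 CPM in endocardial-like cells. P4ha1, a catalytic subunit of prolyl hydroxylase, was 170 CPM (144 to 200) in pericyte-like and 159 CPM in non-classical monocyte-like cells, a ratio of 1.07 (0.876 to 1.31).

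Of 11 cell surface receptors, 4 were at least 2-fold higher in pericyte-like cells (3.31% of all features). The count was 3 in each of capillary-like (3.19%), Schwann-like (3.31%) and epicardial-like cells (3.47%), and 2 in each of arterial-like (2.02%) and smooth muscle-like cells (2.72%). It was 1 in each of lymphatic-like (2.16%) and fibroblast-like cells (3.53%), and 0 in endocardial-like cells (1.77%). In fibroblast-like cells 3 were at or under 1/2 (5.77%), and in the immune classes joined 5 were (7.05%). Itga1, a collagen-binding integrin chain, was 1212 CPM (1140 to 1288) in pericyte-like and 927 CPM in arterial-like cells. Itgb1, its partner, was 1127 CPM in pericyte-like and 762 CPM in Schwann-like cells. Itga6, a laminin-binding integrin chain, was 705 CPM in capillary-like and 362 CPM in arterial-like cells, a ratio of 1.95 (1.87 to 2.03). Bcam, a receptor for laminin alpha 5, was 569 CPM in epicardial-like and 418 CPM in smooth muscle-like cells.

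Of 13 further basement membrane components, 5 were at least 2-fold higher in fibroblast-like (3.53% of all features) and 5 in Schwann-like cells (3.31%). The count was 3 in each of endocardial-like (1.77%), pericyte-like (3.31%) and smooth muscle-like cells (2.72%). It was 2 in each of capillary-like (3.19%), arterial-like (2.02%) and lymphatic-like cells (2.16%), and 1 in epicardial-like cells (3.47%). In the immune classes joined 7 were at or under 1/2 (7.05%). Sparc, a collagen-binding matricellular protein, was 6863 CPM in Schwann-like and 2567 CPM in pericyte-like cells. Hmcn1, a very large matrix protein, was 1869 CPM in endocardial-like and 685 CPM in lymphatic-like cells. Matn2 was 1108 CPM in Schwann-like and 210 CPM in fibroblast-like cells, and Vwa1, a perlecan-binding protein, was 585 CPM and 121 CPM in the same order. All 7 elastic fibre partners of fibulins were at least 2-fold higher in fibroblast-like cells (3.53% of all features) and at or under 1/2 in the immune classes joined (7.05%), and their median was higher by 1.41 on the log2 scale in fibroblast-like cells. Efemp1, a fibulin relative, was 1102 CPM in epicardial-like and 183 CPM in Schwann-like cells. Fbn1 was 935 CPM in fibroblast-like and 615 CPM in pericyte-like cells, Loxl1 was 413 CPM in fibroblast-like and 190 CPM in epicardial-like cells, and Ltbp4 was 652 CPM in fibroblast-like and 629 CPM in arterial-like cells, and fibroblast-like cells were the highest class for it in 1 of the 4 libraries.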

How the data were processed

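Cardiac interstitial cells were measured by single-cell RNA sequencing in 2 stroke and 2 control samples. The authors deposited 1 table of raw counts (UMIs per feature and barcode), which came from Cell Ranger 7.1.0 and genome mm10, per the submitters' processing notes. Nothing read here says if library depths were equalised. The barcode suffixes (1 to 4) were taken as 4 libraries. Since the labels match none of them to a sample, no groups were compared and no test was run.

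Barcodes were kept with at least 500 UMIs, 250 genes and at most 15% mitochondrial UMIs, and 821 failed. Scrublet in scanpy 1.11.5 removed 1445 doublets. In library 3 its own threshold of 0.522 marked 0.0113% of barcodes, so 0.188, the median of the other libraries, was used. Clusters came from 2000 variable genes, 30 components, 15 neighbours and Leiden at resolution 1 (leidenalg 0.10.2). The members, the genes of 4 pathway lists, tdTomato, and sex-linked, ribosomal and mitochondrial genes were left out. Of 45 clusters, those with at least 20 cells and 3 markers at 2-fold or above were named from 24 lists of 167 markers. Further limits on naming (a mean marker fold of at least 2, a marker among the 10 leading genes or 80% of markers raised, no cycling genes in the lead, and a second division of clusters with mixed markers) were set after the first clusters had been seen. Clusters that failed them stayed unnamed, and they hold 3804 cells, 1704 of them led by Kirrel3. Those cells enter no class level, but count among all other cells.

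UMIs were summed per class and divided by the class total. Intervals are exact at 95% (Poisson for a CPM, conditional binomial for a ratio, Clopper-Pearson for a share) and cover counting error only. A count of 0 was taken to allow 3 UMIs. Folds against all other cells had 20 CPM added, over 18846 features with a UMI in at least 20 cells. The fold against all other cells and the Poisson interval were tested on simulated counts of abundant genes. Filtering, clustering, naming and the other intervals were not tested in this way. Alternatives were a stricter cell filter, doublets kept, Leiden resolution 2, cells weighted equally, cells thinned to 1000 UMIs, 5 CPM added, and each library left out. Promoter windows, from RefSeq, were matched for 20 of the 30 genes. Every member is named with its highest class, and with each library's value there where at least 10 UMIs were counted. Of each pathway list the 4 genes with the highest level are named. The members and lists were chosen with earlier results of these data known.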

Additional observations from a re-analysis of the deposited data

Results flagged for a closer look

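Levels were checked library by library in the highest class of 22 genes with at least 10 UMIs in every library, and 2 had a library far from the others, where chance gives about 1 in 20. Col4a1 in capillary-like cells was 1224 CPM in library 4, against 1487 to 1522 CPM in the other 3. Smoc1 in endocardial-like cells was 522 CPM in library 3, against 352 to 370 CPM in the other 3.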

How the results depend on the processing

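No paired analysis was possible because no label ties the 4 libraries to samples. The highest class was the same as in the report for all 30 genes at Leiden resolution 2 and for 29 of 30 under the stricter filter and with doublets kept. It was the same for 26 of 30 with cells weighted equally and for 26 of 30 with cells thinned. Lama5, Lamb3, Col4a3, Col4a5, Sparcl1, Nid2, Agrn, Col4a4 and Lama1 had another highest class under at least 1 of these settings or without 1 library. Of 160 counts recomputed, 139 stayed within 1.5 times, and the 14 genes higher in fibroblast-like cells were 14 without each library. Of 270 levels of a gene in its highest class, 91 moved out of their counting interval and 7 moved by over 1.5 times, in Lama1, Lama5, Lamc3 and Nid2. Genes with a mural maximum numbered 2 with cells weighted equally. Genes at 2-fold or above numbered 2 in pericyte-like cells under the stricter filter, 1 in endocardial-like cells with doublets kept, and 4 in endocardial-like and 6 in epicardial-like cells when thinned. With 5 CPM added they were 4 in endocardial-like, 2 in pericyte-like, 4 in Schwann-like and 5 in epicardial-like cells. With 1 library left out, maxima ranged from 2 to 4 (mural), 1 to 3 (Schwann) and 2 to 4 (epicardial). Genes at 2-fold or above then ranged from 1 to 4 (endocardial-like), 1 to 2 (pericyte-like) and 1 to 3 (smooth muscle-like). No share over all features is given for the alternative settings, so these counts describe the 30 genes only. On the scale of UMIs per cell, chosen after seeing the data, 4 genes were highest in endothelial, 2 in mural, 14 in fibroblast and 1 in Schwann classes. Col4a1, Hspg2, Lama2, Sparcl1, Fbln5 and Col4a4 moved to fibroblast-like cells, and Nid2 and Agrn to epicardial-like cells. Fibroblast-like and epicardial-like cells held a median of 6501 and 6818 UMIs. The cause of the changes under any of these settings was not tested. Lama5 in smooth muscle-like cells was 25.4 CPM when thinned and 41.4 CPM without library 1, Lamc3 in epicardial-like cells was 23.8 CPM and Nid2 in Schwann-like cells 111 CPM when thinned. Counts of 13 to 33 UMIs limit Lama5, Nid2, Agrn, Lamc3 and Col8a2.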

Other observations

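Among unnamed clusters, cells led by Kirrel3 and G630055G22Rik (1704 cells) gave 78.6% of laminin beta UMIs to Lamb2, with 73.5% to 82.3% over the libraries, and held 179 CPM of Fbln2. Cells led by Cytl1 and Ccdc141 (733 cells) gave 86.6% to Lamb2 and held 112 CPM of Smoc1 (92.4 to 178 over the libraries). Cells led by Erbb4 and Wif1 (217 cells) held 169 CPM of Col4a5 (147 to 192) and 140 CPM of Col4a6 (121 to 161), and 152 of these cells were in library 1. Col4a6 there was 163, 68.9, 82.5 and 87.7 CPM in libraries 1 to 4, against 94.1, 134, 101 and 103 CPM in epicardial-like cells, so that it was the higher only in library 1. The Col4a5 intervals of the same cells overlap. A shallow cluster led by Cobl and Ccdc85a (479 cells, median 815 UMIs) had 1507 CPM of Col4a1, 895 CPM of Col4a2 and 679 CPM of Hspg2. Cells led by Rgs5 and Abcc9 (64 cells), left unnamed for markers of unrelated classes, held 216 CPM of Col4a4 from 30 UMIs. Endocardial-like cells held 158 CPM of it. The same cluster had 1636 CPM of Lama2, against 1523 CPM in pericyte-like cells.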
